A study of Homo sapiens with 3 samples.

Results

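Cyclins are the regulatory subunits of cyclin-dependent kinases (CDKs). D cyclins pair with CDK4 and CDK6 and act on the retinoblastoma protein in G1, E cyclins pair with CDK2 at the start of S phase, cyclin A2 acts in S phase and G2, and B cyclins pair with CDK1 to drive mitosis. The transcripts of E, A and B cyclins rise and fall within each division, under E2F factors for entry into S phase and under the MuvB complex with MYBL2 and FOXM1 for the G2/M genes. Cyclins G1 and G2 stand apart from this cycle: CCNG1 is a target of p53 and CCNG2 a target of FOXO factors.
The 10 genes described here were taken by name as the D, E, A2, B and G cyclins: CCND1, CCND2, CCND3, CCNE1, CCNE2, CCNA2, CCNB1, CCNB2, CCNG1 and CCNG2. They are 10 of 58735 rows of the gene table. RNA-seq was performed on parental H660 cells, a human neuroendocrine prostate cancer (NEPC) cell line, treated for 24 h with the vehicle DMSO, with 2.5 μM JG231 or with 5 μM JG231. JG231 is an allosteric inhibitor of the chaperone HSP70. There was 1 library per condition, so no SD, standard error or p-value can be given, every difference is between libraries, and the cell line is the sole model. In RNA from whole cultures, a change in the share of cells in a cell cycle phase and a change in RNA per cell cannot be told apart.
Values are FPKM, that is, fragments per kilobase of gene length scaled to the size of the library, and where 3 values of a gene stand together they are in the order DMSO, low dose, high dose. The FPKM steps corresponded to 16.1, 20.4 and 24.1 M fragments, while the genes above 0 numbered 21862, 19352 and 17293. The sample records call the cells prostatic adenocarcinoma. The neuroendocrine markers SYP, ENO2, CHGA, NCAM1 and INSM1 were all present, at 3.40 to 46.0 FPKM, though by the fold defined further on 4 of these 5 were lower than DMSO at the low dose (3 with each library scaled to the same sum or with a trend in transcript length removed), where 43.4% of all genes were lower, and 5 at the high dose, where 45.1% were, with CHGA, a granule protein gene, at 46.0, 15.0 and 12.7 FPKM. In contrast, the luminal gene KLK3 did not exceed 0.134 FPKM, and PTPRC of leukocytes and PECAM1 of endothelium were listed at 0. COL1A1, a fibroblast collagen gene, had 0.823, 0.745 and 1.27 FPKM. The part of these markers in the results was not tested.

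Promoters are shown for CCNE1, the member with the largest log2 change from DMSO among those with an FPKM over 1, for CCNA2, CCNB1 and CCNB2, which belong to the same late cell cycle programme, although CCNA2 was higher and CCNB1 lower with JG231, and for the G cyclins, of which CCNG1 was higher and CCNG2 nearly level. Each window, from RefSeq on GRCh38.p14, runs from 250 bases before to 50 bases after the annotated start on the strand of the gene, 5′ to 3′. Capitals mark the CCAAT box (CCAAT or its reverse complement), the cell cycle homology region (TTTGAA, and the variant TTTAAA), the E-box bound by MYC family proteins (CACGTG) and the CRE (TGACGTCA).
CCNE1 (chr19:29811741-29812040, plus strand): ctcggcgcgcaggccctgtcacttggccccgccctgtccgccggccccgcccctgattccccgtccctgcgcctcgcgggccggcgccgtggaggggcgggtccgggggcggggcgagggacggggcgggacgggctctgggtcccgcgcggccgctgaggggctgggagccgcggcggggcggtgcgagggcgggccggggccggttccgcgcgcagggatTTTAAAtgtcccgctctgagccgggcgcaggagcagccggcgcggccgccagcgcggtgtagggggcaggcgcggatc
CCNA2 (chr4:121823834-121824133, minus strand): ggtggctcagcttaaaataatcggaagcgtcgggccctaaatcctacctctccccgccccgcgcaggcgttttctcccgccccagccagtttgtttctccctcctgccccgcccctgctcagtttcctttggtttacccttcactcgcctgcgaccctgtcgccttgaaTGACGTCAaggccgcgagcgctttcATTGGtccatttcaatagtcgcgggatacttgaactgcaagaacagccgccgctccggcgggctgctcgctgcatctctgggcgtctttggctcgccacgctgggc
CCNB1 (chr5:69166900-69167199, plus strand): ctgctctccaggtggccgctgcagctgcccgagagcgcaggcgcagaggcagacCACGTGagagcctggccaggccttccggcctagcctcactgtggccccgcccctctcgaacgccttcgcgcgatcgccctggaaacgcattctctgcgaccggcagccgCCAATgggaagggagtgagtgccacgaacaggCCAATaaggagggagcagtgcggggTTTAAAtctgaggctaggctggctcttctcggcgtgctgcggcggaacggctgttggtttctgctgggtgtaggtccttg
CCNB2 (chr15:59104896-59105195, plus strand): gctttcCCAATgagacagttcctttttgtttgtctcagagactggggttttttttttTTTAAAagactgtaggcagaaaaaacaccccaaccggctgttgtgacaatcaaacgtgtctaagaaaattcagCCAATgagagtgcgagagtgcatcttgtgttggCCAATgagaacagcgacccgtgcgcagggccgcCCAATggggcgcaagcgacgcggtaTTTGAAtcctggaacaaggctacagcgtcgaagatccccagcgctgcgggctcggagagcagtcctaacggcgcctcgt
CCNG1 (chr5:163437321-163437620, plus strand): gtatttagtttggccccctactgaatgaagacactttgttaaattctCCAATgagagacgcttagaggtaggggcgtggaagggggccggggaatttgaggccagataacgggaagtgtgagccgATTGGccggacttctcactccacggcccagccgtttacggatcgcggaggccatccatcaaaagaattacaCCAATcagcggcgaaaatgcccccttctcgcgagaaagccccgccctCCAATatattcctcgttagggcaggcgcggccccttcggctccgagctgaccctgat
CCNG2 (chr4:77156957-77157256, plus strand): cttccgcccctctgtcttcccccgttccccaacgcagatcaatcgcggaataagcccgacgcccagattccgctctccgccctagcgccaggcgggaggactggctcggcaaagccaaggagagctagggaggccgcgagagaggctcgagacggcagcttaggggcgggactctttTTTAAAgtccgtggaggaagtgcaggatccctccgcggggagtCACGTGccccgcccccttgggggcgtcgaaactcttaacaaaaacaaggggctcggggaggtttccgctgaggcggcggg
Windows were available for 7 of the 10 members, 10 windows in all, since CCND3 has 3 and CCNG1 has 2. The 2 CCNG1 windows overlap and hold the same CCAAT matches, so windows of the same gene are not separate observations. Both strands were searched. CCAAT was found in 7 of these 10 windows and in 34.6% of all 35116 windows of the same length. CCNB2 held it 4 times, starting 244, 120, 87 and 54 bases before the start, CCNB1 at 87 and 55 bases before it, and CCNA2 once, 56 bases before it on the other strand. CCNG1 held it 4 times in the window shown, starting 203, 125, 54 and 7 bases before the start. TTTGAA occurred in the CCNB2 window alone among the members, 29 bases before the start, against 15.2% of all windows. TTTAAA lay 30 bases before the start of CCNB1, 28 before that of CCNE1, 73 before that of CCNG2 and 193 before that of CCNB2 (12.2% of all windows). CACGTG was present in CCNB1 and CCNG2 (7.26% of all windows), and TGACGTCA in CCNA2 (1.85%). The E2F letters TTTCCCGC and TTTGGCGC were in none of the member windows, and in 1.63% and 0.652% of all windows. These matches describe letters and not bound sites, and the matches marked in a window do not overlap each other.

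In DMSO the highest level among the 10 genes was that of CCNB1 at 48.9 FPKM, followed by CCNG1 at 26.1, CCNB2 at 23.3, CCNE2 at 16.3, CCNA2 at 16.2, CCNE1 at 9.77, CCNG2 at 8.84 and CCND3 at 6.03. CCND1 had 0.309 FPKM and CCND2 was listed at 0. Of the cyclins outside these 10, CCNI at 66.0 FPKM and CCNL2 at 51.1 stood above CCNB1. As a measure of how far a single gene may vary, the robust SD of the log2 difference between the JG231 libraries was taken over the 500 genes nearest in mean FPKM, and it is called the spread below. It includes any effect of dose, is not a replicate error, and does not measure error between different genes of the same library. CCNG1 and CCNB2, CCNE2 and CCNA2, and CCNE1 and CCNG2 are neighbours in this order whose levels differed by less than the spread. At 5 μM the order was CCNG1, CCNB1, CCNB2, CCNA2, CCND3, CCNE2, CCNG2, CCNE1, CCND1 and CCND2. There CCNB1 and CCNB2, CCNB2 and CCNA2, and CCND3 and CCNE2 were within the spread of each other, as were CCNE1 and CCND1, for which the spread at such a low level was 2.23 on the log2 scale.
Levels between genes depend on the length used. The deposited values stand on all exons of a gene, and for CCND3 these span 5761 bases against 2026 in its canonical transcript. Per canonical transcript, an alternative added after seeing the data, CCND3 would stand at 17.2 FPKM in DMSO, above CCNA2 at 16.2 and CCNE1 at 12.3, and CCNB2 at 43.1 rather than 23.3. Ratios of a gene between libraries do not depend on this choice.

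**Figure D1:**
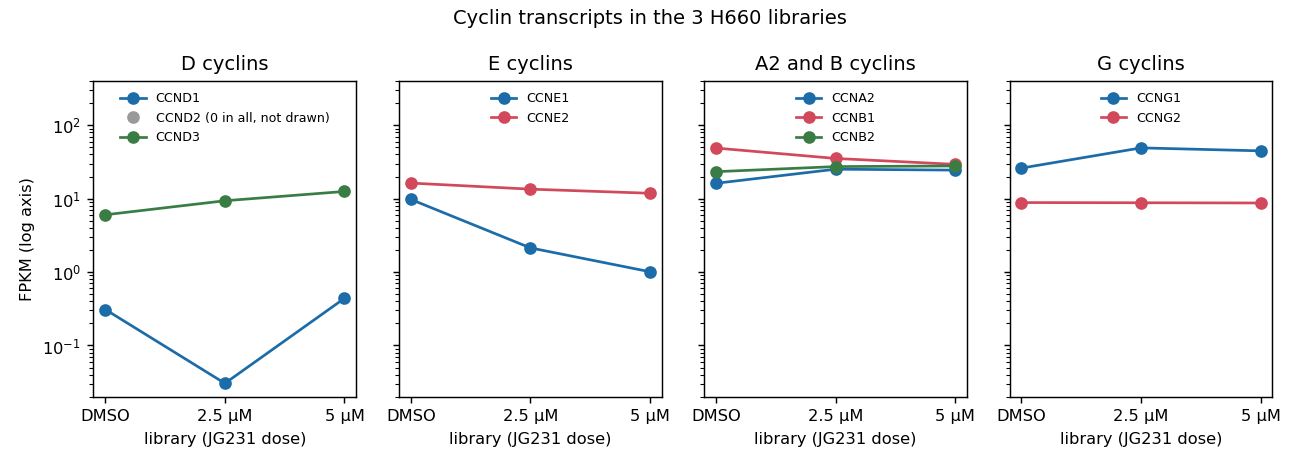
FPKM (log axis) of the cyclins in the DMSO, 2.5 μM and 5 μM JG231 libraries, 1 point per library, with lines joining the points of a gene. CCNE1 goes from 9.77 to 1.01 FPKM while CCNE2 stays between 11.8 and 16.3, CCND3 and CCNG1 are higher in both JG231 libraries, and CCND2, listed at 0, is not drawn.

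Changes are log2((FPKM in JG231 + 0.1)/(FPKM in DMSO + 0.1)), which understates the change of low genes. A gene counted as higher or lower when its FPKM was over 1 in either library and the change over 0.25, the fold used by the study. At 5 μM, 8 of the 10 cyclins passed the filter on FPKM, of which 4 were higher (CCND3, CCNA2, CCNB2 and CCNG1), 3 were lower (CCNE1, CCNE2 and CCNB1) and CCNG2 was within the fold. Of all 15765 genes that passed the filter, 36.5% were higher and 45.1% were lower. At 2.5 μM 3 cyclins were higher and 3 lower, with CCNB2 now under the fold, against 36.4% and 43.4% of 15746 genes. The median over the 8 genes was 0.11 at the low dose and 0.12 at the high dose, beside -0.08 and -0.11 over all genes. Leaving mitochondrial and small RNA genes out of the scaling gave 3 higher and 4 lower cyclins at 2.5 μM, and 2 higher and 4 lower at 5 μM. Of all genes, 24.6% were then higher and 56.2% lower at 2.5 μM, and 23.0% higher and 60.1% lower at 5 μM. With each library scaled to the same sum, 4 cyclins were higher and 2 lower at 2.5 μM, and 3 were higher and 3 lower at 5 μM. That scaling left 38.5% of all genes higher and 41.5% lower at 2.5 μM, and 31.5% higher and 49.98% lower at 5 μM. Past a fold of 1 on the log2 scale, CCNE1 was lower at both doses (21.7% and 24.3% of all genes) and CCND3 was higher at 5 μM (14.7% of all genes), with 0 cyclins higher at 2.5 μM (12.9%). Both doses are compared with the same DMSO library, so they are not independent of each other. The 9 members above 0, CCND1 included, had medians of -0.01 and 0.26.
Between the JG231 libraries, a comparison free of the DMSO library, CCND3 was higher at 5 μM and CCNE1 and CCNB1 were lower, while the other 5 cyclins differed by less than the fold. There 26.8% of 14197 genes were higher and 30.1% lower. With each library scaled to the same sum, 0 cyclins were higher and 4 were lower, but that scaling shifted the median of all genes by -0.18, and 16.9% of all genes were then higher and 45.2% lower. Past a fold of 1, CCNE1 was lower (8.09% of all genes) and 0 cyclins were higher (7.47%).

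**Figure D2:**
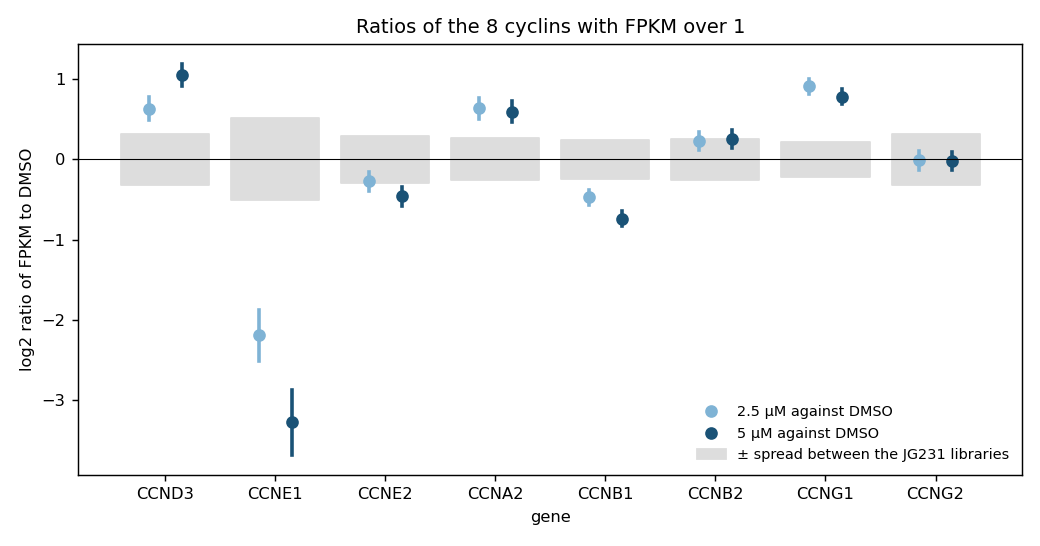
Log2 ratio of FPKM to DMSO (no pseudocount) for the 8 cyclins with FPKM over 1, at 2.5 μM (light) and 5 μM (dark). Vertical lines are 95% intervals for counting error alone and grey boxes show the spread between the JG231 libraries; the points of CCNE1 lie far below its box, with intervals of -2.52 to -1.88 and -3.69 to -2.87, and those of CCNB2 and CCNG2 lie inside or at the edge of theirs.

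Among the D cyclins, which respond to growth factors, CCND3 (ENSG00000112576, chr6:41934934-42050357 on GRCh38) was the single member with an FPKM over 1. It had 6.03, 9.37 and 12.5 FPKM, from about 559, 1099 and 1737 fragments. The level was higher at each dose, 1.55-fold and then 2.08-fold of DMSO, with 95% counting intervals of 1.40 to 1.72 and 1.89 to 2.29. The log2 changes of 0.63 and 1.04 exceeded the spread of 0.31, and so did the step from 2.5 to 5 μM, 0.42. With mitochondrial and small RNA genes left out of the scaling the changes were 0.34 and 0.67. The step was 0.24, under the spread and the fold, with each library scaled to the same sum, and 0.31, no larger than the spread, with the length trend removed.
CCND1 (ENSG00000110092, chr11:69641156-69654474) was close to the limit of detection, at 0.309, 0.0305 and 0.439 FPKM, or about 24, 3 and 50 fragments. The 2.5 μM value was 0.0987 of that in DMSO, with a counting interval of 0.0190 to 0.325, and the 5 μM value 1.42 of it, with an interval of 0.84 to 2.37 that includes 1. Exons of CCND1 overlap those of LTO1 on the other strand, which had 2.09, 1.93 and 1.34 FPKM, and whether strand was used in counting is not stated. CCND2 (ENSG00000118971, chr12:4269771-4305353) was listed at 0 in every library, where 3 fragments would give 0.0233, 0.0184 and 0.0156 FPKM. Its exons overlap those of ENSG00000285901, a protein-coding gene on the same strand that was listed at 0 as well, and how fragments shared by such genes were counted is not stated, so the 0 may not reflect the CCND2 transcript. The antisense RNA CCND2-AS1 was listed at 0 too.

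The E cyclins, activators of CDK2, differed in how far they moved. CCNE1 (ENSG00000105173, chr19:29811991-29824312) had 9.77, 2.14 and 1.01 FPKM, from about 387, 107 and 60 fragments. DMSO was far above both JG231 libraries, and the lower dose above the higher. As a plain ratio of FPKM the level was 4.57-fold lower at 2.5 μM (95% counting interval 3.69 to 5.73) and 9.67-fold lower at 5 μM (7.33 to 12.9). Its log2 changes were -2.14 and -3.15, where the spread was 0.51, and the change between the doses was -1.01. Among the 11200 protein-coding genes whose mean FPKM reached 1, 58 (0.518%) had a lower change at 5 μM and 143 (1.28%) did at 2.5 μM. Over all genes that passed the filter on FPKM, 10.1% had a lower change at 5 μM and 10.4% did at 2.5 μM.
CCNE2 (ENSG00000175305, on chromosome 8) had 16.3, 13.5 and 11.8 FPKM from at least 1153 fragments in each library. The order of the libraries was that of CCNE1. In the deposited scaling the log2 changes were -0.27 at 2.5 μM, inside the spread of 0.29, and -0.46 at 5 μM, outside it. They were -0.56 and -0.84, both outside it, with mitochondrial and small RNA genes left out of the scaling, and at 2.5 μM the change was -0.22 with each library scaled to the same sum and -0.19 after centring on the median gene, both inside the fold. Within a library, where scaling cancels, the ratio of CCNE2 to CCNE1 was 1.67, 6.31 and 11.7. Some exons of CCNE2 overlap INTS8 on the other strand, which had 17.4, 15.5 and 18.1 FPKM, and the lncRNA ENSG00000272509, also on the other strand, which had 3.63, 0.425 and 0 FPKM, lower with dose as CCNE2 was. The part of these genes in the values of CCNE2 was not tested.
The genes whose pair of changes was nearest to that of CCNE1, among genes whose mean FPKM reached 5, were CPM, C14orf132, AP000357.2, TNFRSF25 and NTNG2. The measure was the Euclidean distance over the 2 log2 changes from DMSO, which come from 3 libraries, and the mean of CCNE1 itself was 4.31 FPKM. CPM, a membrane carboxypeptidase, was the nearest at a distance of 0.097, with 26.2, 5.80 and 3.06 FPKM. The others lay at 0.29 to 0.48.

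The S phase and mitotic cyclins differed in direction. CCNA2 (ENSG00000145386, chr4:121816444-121823883), the cyclin of S phase and G2, had 16.2, 25.2 and 24.5 FPKM, from about 716, 1410 and 1618 fragments. Both JG231 libraries were above DMSO and nearly equal to each other. The log2 changes were 0.63 and 0.59, where the spread was 0.26, and the 5 μM library was 0.04 lower than the 2.5 μM library, with a counting interval of the log2 ratio from -0.15 to 0.06. With mitochondrial and small RNA genes left out of the scaling the changes from DMSO were 0.34 and 0.21, the latter inside both the fold and the spread.
CCNB1 (ENSG00000134057, chr5:69167135-69178245), the main mitotic cyclin, went the other way, with 48.9, 35.3 and 29.3 FPKM from at least 1717 fragments a library. DMSO was highest and the high dose lowest. The log2 changes were -0.47 and -0.73, where the spread was 0.24, and the change from 2.5 to 5 μM was -0.27. Leaving mitochondrial and small RNA genes out of the scaling gave -0.76 and -1.11, and after centring on the median gene the change between the doses was inside the fold. CCNB2 (ENSG00000157456, chr15:59105126-59125045), its close relative, had 23.3, 27.3 and 27.9 FPKM. The log2 changes of 0.23 and 0.26 were inside and at the edge of the spread of 0.26. At 2.5 μM the change was past the fold at 0.28 with each library scaled to the same sum and at 0.31 after centring, but -0.06 with mitochondrial and small RNA genes left out of the scaling and -0.03 with the length trend taken out. At 5 μM it was 0.13, inside the fold, with each library scaled to the same sum. There it turned to -0.12 once mitochondrial and small RNA genes were left out of the scaling, and to -0.14 with the length trend taken out.
On the deposited length the ratio of CCNB1 to CCNB2 was 2.10, 1.29 and 1.05, and that of CCNB1 to CCNA2 was 3.02, 1.40 and 1.20. Per canonical transcript, the former was 1.36, 0.836 and 0.682, so that CCNB2 stood above CCNB1 in both JG231 libraries, and the ratio was again lower with dose. In the deposited scaling the summed FPKM of the trio was nearly level, at 88.4, 87.8 and 81.7. Leaving mitochondrial and small RNA genes out of the scaling shifted the median of all genes by -0.29 at 2.5 μM and -0.37 at 5 μM. The sum of the trio would then be lower in both JG231 libraries than in DMSO. Exons of CCNA2 overlap EXOSC9 on the other strand, which had 12.1, 13.7 and 17.4 FPKM.

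Of the G cyclins, CCNG1 (ENSG00000113328, chr5:163437569-163446151), which recruits protein phosphatase 2A to MDM2, had the highest level of the 10 genes in both JG231 libraries. It had 26.1, 49.1 and 44.8 FPKM, from about 1299, 3100 and 3335 fragments. Both JG231 values were above DMSO, by log2 changes of 0.91 and 0.78 where the spread was 0.22, and the change between the doses, -0.13, was inside it, though with each library scaled to the same sum it was -0.31, past the fold and the spread. The changes from DMSO were 0.62 and 0.40 with mitochondrial and small RNA genes left out of the scaling. CCNG2 (ENSG00000138764, chr4:77157207-77433388), a cyclin linked to cell cycle arrest, had 8.84, 8.79 and 8.73 FPKM, from about 1055, 1328 and 1557 fragments. The counting interval of its log2 ratio to DMSO was -0.13 to 0.11 for the low dose and -0.13 to 0.09 for the high dose. With that scaling its changes were -0.30 and -0.39, with all genes shifted by -0.29 and -0.37.
No pseudogene or antisense row that bears the name of a member had a value above 0, for the 7 such rows in the table.

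As shares of the summed FPKM of the 10 cyclins, which do not depend on library scaling but do depend on the length used, the E cyclins made up 16.7%, 9.14% and 7.98%. The D cyclins made up 4.07%, 5.50% and 8.05%, and the G cyclins 22.4%, 33.9% and 33.2%. CCNA2 with the B cyclins made up 56.8%, 51.4% and 50.7%. The E share was thus lower, and the D and G shares higher, with JG231. Per canonical transcript these directions were the same, with 7.97%, 10.9% and 15.3% for the D cyclins, 17.8%, 10.2% and 8.77% for the E cyclins and 20.5%, 30.4% and 29.0% for the G cyclins. The sum itself was 155.7, 170.7 and 161.0 FPKM. CCNG1 stood at 0.534 of CCNB1 in DMSO, and at 1.39 and 1.53 of it in the JG231 libraries.

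**Figure D3:**
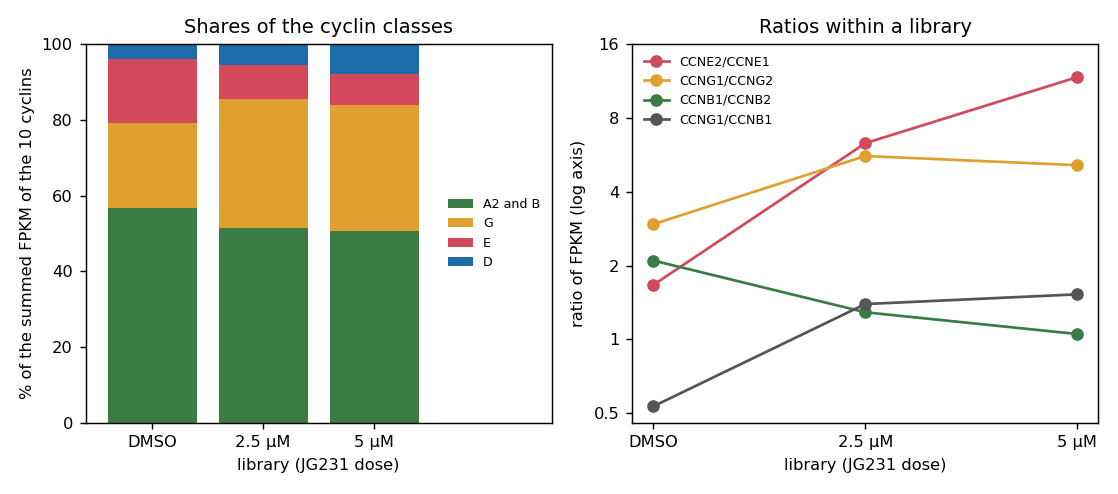
Left, share (%) of each cyclin class in the summed FPKM of the 10 cyclins in each library; right, ratios of FPKM between cyclins of the same library (log axis). The E cyclin share is 16.7% in DMSO and 7.98% at 5 μM, the ratio of CCNE2 to CCNE1 is 1.67 and 11.7, and that of CCNB1 to CCNB2 is 2.10 and 1.05.

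Changes in these libraries were related to transcript length over protein-coding genes. When those genes were divided into 5 groups by length, the group with the shortest canonical transcripts had medians of 0.36 (low dose) and 0.49 (high dose), and the group with the longest had -0.22 and -0.44. The canonical transcripts of the 8 cyclins run from 1488 bases for CCNB2 to 5471 for CCNG2. With that trend removed, CCNE1 stood at -2.32 and -3.44, CCNB1 at -0.63 and -1.01, CCND3 at 0.46 and 0.77, CCNA2 at 0.57 and 0.48, and CCNG1 at 0.81 and 0.59. Each of these kept its sign, CCNE2 stood at -0.35 and -0.59, and CCNB2 turned to -0.03 and -0.14. CCNG2 stood at 0.16 and 0.25, just past the fold at 5 μM, so that it was higher there but lower, at -0.39, with mitochondrial and small RNA genes left out of the scaling.

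**Figure D4:**
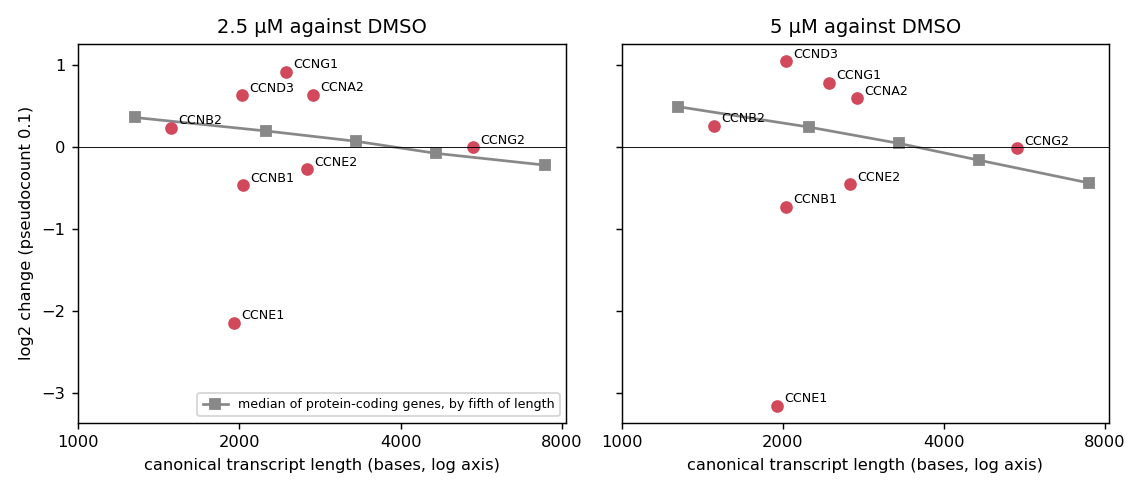
Log2 change at 2.5 μM (left) and 5 μM (right) against canonical transcript length (log axis); grey squares are medians of protein-coding genes by length group and red points are cyclins. The grey line runs from 0.49 to -0.44 at 5 μM, CCNE1 lies far below it at -3.15, CCNB1 and CCNE2 lie below it, and CCND3, CCNA2 and CCNG1 above it.

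Genes that act with the cyclins were taken from lists chosen for the pathway. The list of cell cycle CDKs also held MNAT1, the assembly factor of CDK7. At 5 μM, 5 of its 6 genes with an FPKM over 1 were higher and 1 was lower, where 36.5% of all genes were higher and 45.1% lower, and 4 were higher and 0 lower at 2.5 μM, where the shares of all genes were 36.4% and 43.4%. MNAT1 was among those higher at both doses. CDK6, a partner of D cyclins, had 0.690, 2.08 and 1.71 FPKM. CDK7, the kinase that activates other CDKs, had 8.0, 16.6 and 14.9 FPKM. CDK2, the partner of the E cyclins, had 42.8, 36.1 and 34.4 FPKM and was lower at 5 μM, with a log2 change of -0.32, while at 2.5 μM it was just inside the fold. Of the other cyclins, 5 of 15 were higher and 3 lower at 2.5 μM, 5 higher and 4 lower at 5 μM, and 3 higher and 9 lower at 5 μM when mitochondrial and small RNA genes were left out of the scaling. The share of all genes that was higher was 36.4% at 2.5 μM and 36.5% at 5 μM, near that of these cyclins, and 43.4% and 45.1% were lower. That other scaling shifted the median of all genes by -0.37 at 5 μM, with 23.0% of them higher and 60.1% lower. CCNH, the partner of CDK7, went from 4.45 to 11.1 and 9.20 FPKM, CCNL1, linked to splicing, from 15.4 to 27.3 and 29.1, CCNF, a subunit of a ubiquitin ligase, from 7.85 to 4.76 and 4.11, and CCNA1, the germ line relative of CCNA2, from 8.18 to 4.74 and 5.21.
CDK inhibitors were higher in 6 of 7 at 5 μM and 5 of 7 at 2.5 μM, where 36.5% and 36.4% of all genes were higher, with 0 lower at either dose. CDKN1A, which encodes p21 and is a target of p53, had 97.6, 201.9 and 250.2 FPKM. CDKN2A had 81.6, 211.8 and 205.6 FPKM, and CDKN2C, an inhibitor of CDK4 and CDK6, had 138.2, 133.5 and 122.1, inside the fold. With that other scaling, 4 of 7 inhibitors were higher and 1 was lower at each dose, and with the length trend removed 5 were higher and 1 was lower at each dose. The other scaling gave 24.6% of all genes higher and 56.2% lower at 2.5 μM, and 23.0% and 60.1% at 5 μM. With the length trend removed these shares were 34.8% and 43.7% at 2.5 μM, and 34.0% and 45.4% at 5 μM. Of the CDK list, 3 of 6 genes, MNAT1 included, were higher and 1 was lower at 5 μM with the other scaling. Among kinases and phosphatases that act on CDKs, 3 of 5 were higher and 0 lower at each dose, where 36.4% of all genes were higher and 43.4% lower at 2.5 μM, and 36.5% and 45.1% at 5 μM, or 3 and 2 at 5 μM with the other scaling. WEE1, which inhibits CDK1, had 19.98, 47.3 and 48.1 FPKM, CDC25A, which activates CDK2, had 5.68, 9.28 and 11.0, and CDC25B had 51.7, 49.3 and 48.6. CDKN2C and CDC25B were lower at both doses with the other scaling, at -0.34 and -0.56 and at -0.36 and -0.47.
Pocket proteins, E2F factors and the other cell cycle transcription factors were divided, with 9 of 19 higher and 6 lower at 2.5 μM and 10 higher and 6 lower at 5 μM, but 5 higher and 7 lower at 5 μM with the other scaling, which shifted the median of all genes by -0.37. Of all genes 36.4% were higher and 43.4% lower at 2.5 μM, and 36.5% were higher and 45.1% lower at 5 μM, which are also the shares to set beside the counts for cyclin turnover. LIN54, the DNA-binding subunit of the MuvB complex, had 2.57, 4.15 and 5.99 FPKM, and E2F4, a factor that works with the pocket proteins, had 11.0, 21.1 and 24.1. RBL2, which encodes the pocket protein p130, went from 7.41 to 4.26 and 2.48, and TFDP2, an E2F partner, from 14.3 to 7.25 and 5.36. Of the genes for cyclin turnover, 10 of 16 were higher and 3 lower at 2.5 μM, and 8 were higher and 3 lower at 5 μM, or 7 and 6 with the other scaling. With that scaling 23.0% of all genes were higher and 60.1% lower at 5 μM. CDC20, which directs the anaphase-promoting complex to cyclin B, had 75.0, 135.6 and 164.9 FPKM, and CKS1B, a cofactor of SKP2, had 47.4, 73.1 and 98.3. SKP2 had 19.2, 14.4 and 11.8 FPKM and SKP1 22.1, 16.3 and 17.1, both parts of a ubiquitin ligase. With the length trend removed SKP1 was inside the fold at both doses, at -0.11 and 0.16, and so were CKS1B (0.23) and, of the genes below, MDM2 (-0.20) at 2.5 μM.
Of the partners and regulators of cyclins G, 4 of 11 were higher and 3 lower at 2.5 μM, 4 were higher and 4 lower at 5 μM, and 3 higher and 7 lower at 5 μM with the other scaling and its shift of -0.37. The share higher was close to that of all genes, 36.4% at 2.5 μM and 36.5% at 5 μM, and 43.4% and 45.1% of all genes were lower. PPP2R5B and PPP2CA, subunits of protein phosphatase 2A, went from 4.68 to 12.0 and from 40.4 to 72.8 FPKM at 5 μM, and PPP2R5D, another subunit, from 11.2 to 6.38. MDM2, the ubiquitin ligase for p53, had 9.46, 6.81 and 5.62 FPKM, lower in the libraries in which CCNG1 and CDKN1A were higher.

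**Figure D5:**
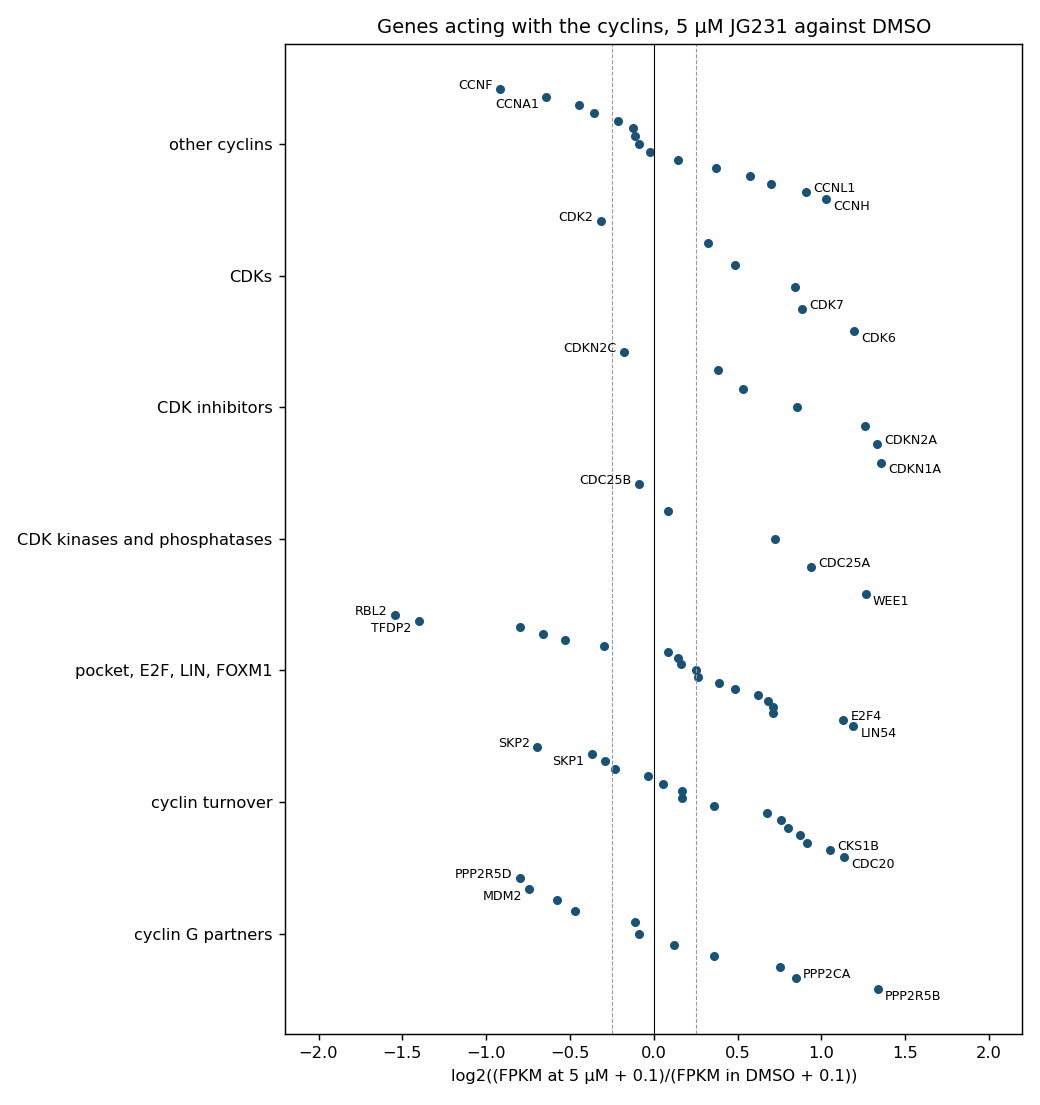
Log2 change at 5 μM JG231 against DMSO for genes of the pathway lists with an FPKM over 1 in either library, 1 point per gene, with dashed lines at the fold of 0.25 and MNAT1 in the row of CDKs. In the deposited scaling the CDK inhibitors lie to the right apart from CDKN2C, and RBL2 and TFDP2 have the lowest values of the lists, at -1.54 and -1.40.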

How the data were processed

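RNA-seq of 3 H660 libraries, 1 per condition, was analysed. The authors deposited gene-level FPKM for 58735 Ensembl genes, scaled within each library. The paper's methods name HISAT and StringTie, and the processing notes name HISAT2, featureCounts and GRCh38; no versions or annotation release are given in the sources used here. Strand use in counting is not stated. In the values, FPKM times the length of all exons in GENCODE release 44 was a whole multiple of 1 fragment, within 0.1 and below 20 fragments, for 87.7% to 92.6% of genes with 1 transcript and 63.4% to 63.8% of the others. With canonical transcript length it was 21.1% to 22.2% of the others. Fragment numbers were computed with exon lengths of that release and are approximate. Counting intervals (exact Clopper-Pearson on 2 fragment numbers) and the limit of 3 fragments cover counting error only, since PCR copies are not independent molecules.
Identifiers were matched for 58207 genes. No test was made, with 1 library per condition. The pseudocount of 0.1 and the fold of 0.25 are those of the study. Members and lists were chosen with earlier results of these data known; of each list the text names up to 2 genes in each direction at 5 μM, and CHGA, COL1A1, MNAT1, CCNI, CCNL2 and genes that overlap a member in addition, chosen after their values were seen. In the report, the other scaling is the one without mitochondrial and small RNA genes. Alternatives were pseudocounts of 1 and 0.01, other filters, a fold of 1, rescaling to the same sum, rescaling with mitochondrial and small RNA genes left out, centring on the median, and removal of the length trend by lowess (fraction 0.3). Some marker genes that were examined are not reported here. The code was tested on simulated data. The tools were statsmodels 0.14.6 for lowess, scipy 1.17.1 for intervals, pandas 2.3.3 with numpy 2.4.6 for tables and matplotlib 3.10.9 for figures, under Python 3.11.15.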

Additional observations from a re-analysis of the deposited data

Results flagged for a closer look

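CCND1 was below DMSO at 2.5 μM and above it at 5 μM, with log2 changes against DMSO of -1.65 for the low dose (2.5 μM) and 0.40 for the high dose (5 μM). The libraries held about 24 (DMSO), 3 (low dose) and 50 (high dose) fragments of it, the gene did not reach an FPKM of 1 in any of them, and the difference between the doses was not tested. The direction at the high dose is not established, since the counting interval of that ratio to DMSO, 0.84 to 2.37, includes 1, and the spread of genes at this level, 2.23 on the log2 scale, exceeds both changes.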

How the results depend on the processing

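Under the 7 settings run for single genes, CCNE1, CCNE2 and CCNB1 kept a negative change from DMSO at both doses. CCND3, CCNA2 and CCNG1 kept a positive one. Not all were past the fold: CCNE2 at 2.5 μM was -0.22 with each library scaled to the same sum and -0.19 after centring. CCNA2 at 5 μM was 0.21 with mitochondrial and small RNA genes left out of the scaling. The range for CCNE1 was -2.43 to -1.78 (low dose) and -3.52 to -2.42 (high dose). Rescaling without mitochondrial and small RNA genes shifted the median of all genes by -0.29 at 2.5 μM and -0.37 at 5 μM. There the median of the cyclins was -0.30 at 2.5 μM, it turned from 0.26 to -0.12 at 5 μM (over the 9 cyclins above 0), and 2 cyclins were higher at 5 μM (CCND3 and CCNG1). The median of all genes with that scaling was -0.37 at 2.5 μM and -0.48 at 5 μM, and 23.0% of all genes were higher at 5 μM. CCNB2 at 5 μM was -0.12 there and -0.14 with the length trend removed. With a fold of 1, cyclins higher and lower were 0 and 1 at 2.5 μM, 1 and 1 at 5 μM, and 0 and 1 between the doses. Between the doses, 2 cyclins were higher with no filter on low values, 1 was lower when the mean FPKM had to reach 5 and 1 was lower after centring, while rescaling to a common sum left 0 higher and 4 lower with a median of -0.22, where the median of all genes was -0.19. No paired analysis was possible because each condition has 1 library. Fragment numbers limit CCND1 and CCND2.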
